A study of Homo sapiens with 6 samples.

Results

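Of the 495 genes annotated as pseudogenes whose symbol begins with RPS and ends in P and a number, 56 averaged 1 FPKM or more over the 6 libraries of this series, among 60612 genes listed in all. These 56 copies of small-subunit ribosomal protein genes are described here. They were chosen by their mean FPKM over all libraries, so that level is given as a description only. The libraries were made from oligo(dT)-purified RNA of HCT116, a human line grown from a colorectal carcinoma. The cells had been infected with LV-NC, the negative control lentivirus (3 libraries), or with LV-SNORA28, which overexpresses a small nucleolar RNA, SNORA28 (3 libraries). Both groups share the cell line and the exposure to lentivirus, and no source states that the 3 libraries of a group came from separate cultures, so p-values may measure technical spread only.

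Each ribosome has a small subunit, the 40S subunit, which holds the decoding site and is built from 18S ribosomal RNA and a set of proteins named RPS or RPSA. Their messages are short, abundant and made in every dividing cell, and such messages were copied back into the genome many times by the reverse transcriptase of LINE elements. The copies, called processed pseudogenes, lack introns and usually lack the promoter of the parent gene, so a read from the mature parent message can match a copy almost as well as its source. FPKM, the unit of the deposited tables, scales fragment counts by transcript length and by the mapped fragments of the library. How reads that match several places were divided is not given in the sources used here, and the FPKM of a copy is therefore not known to be RNA made at its own locus. In bulk RNA, fewer cells that make a transcript and less of it per cell cannot be told apart.

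SNORA28 itself measured 0.92, 0 and 0.64 FPKM across the LV-NC libraries, against 15.01, 13.66 and 15.2 FPKM across the LV-SNORA28 libraries, as labelled. The means of all 8 epithelial markers examined were 12.4 FPKM or higher. Of 5 fibroblast markers COL1A1 alone exceeded 1 FPKM, with DCN, LUM and COL1A2 at 0 in all libraries, and the highest mean of 4 endothelial markers was 0.06 FPKM. Of 5 leukocyte markers CD68 alone exceeded 1 FPKM, and their sum ran from 1.1 to 2.33 FPKM in LV-NC and from 2.36 to 4.14 FPKM in LV-SNORA28. Whether these cell markers had a part in the results below was not tested. Genes of the mitochondrial chromosome took 44.4% ± 2.84 (SD, n = 3) of all FPKM in the control libraries and 37.3% ± 1.26 (SD, n = 3) in the others, without overlap. Over the 12076 genes tested the log2 fold changes had a median of 0.09.

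The copies are close to their parents. The canonical transcript of all 56 has a single exon. Each matched the parent named in its symbol better than any other 40S gene. Median identity over aligned bases was 98.0%, from 83.6% to 100%. The annotation lists 53 as processed pseudogenes and 3, RPSAP52, RPS27AP16 and RPSAP3, as transcribed processed pseudogenes. RPSAP52 spans chr12:65758020-65826997, far beyond its canonical transcript of 878 bases. RPS28P7, printed here because it was listed far above its parent, spans the whole coding sequence of RPS28 without a difference (GENCODE release 44 on GRCh38, chr11:82689559-82689768, plus strand).
RPS28P7: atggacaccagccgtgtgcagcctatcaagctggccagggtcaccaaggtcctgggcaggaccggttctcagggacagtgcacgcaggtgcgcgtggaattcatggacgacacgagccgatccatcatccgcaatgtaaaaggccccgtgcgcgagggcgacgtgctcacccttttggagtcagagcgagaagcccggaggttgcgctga

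The RPS27 copies are printed because the group lay lower as a whole in LV-SNORA28. The parent coding sequence comes before 4 of its 6 copies, and capitals mark each base that differs from the parent. RPS27P3 lies at chr12:3211663-3211917 (minus strand), RPS27P4 at chr3:40761545-40761799 (plus), RPS27P19 at chr11:117035797-117036051 (minus) and RPS27P9 at chr1:37556247-37556499 (plus).
RPS27 coding sequence: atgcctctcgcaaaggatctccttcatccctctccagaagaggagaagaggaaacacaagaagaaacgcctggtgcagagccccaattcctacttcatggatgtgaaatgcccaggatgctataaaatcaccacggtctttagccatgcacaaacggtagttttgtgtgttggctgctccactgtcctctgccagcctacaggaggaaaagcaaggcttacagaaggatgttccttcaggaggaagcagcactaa
RPS27P3: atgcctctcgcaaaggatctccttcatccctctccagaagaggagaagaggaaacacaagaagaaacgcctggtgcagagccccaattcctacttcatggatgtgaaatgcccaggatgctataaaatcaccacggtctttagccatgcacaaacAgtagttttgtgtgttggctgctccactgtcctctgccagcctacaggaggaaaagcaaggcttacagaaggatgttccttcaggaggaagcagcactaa
RPS27P4: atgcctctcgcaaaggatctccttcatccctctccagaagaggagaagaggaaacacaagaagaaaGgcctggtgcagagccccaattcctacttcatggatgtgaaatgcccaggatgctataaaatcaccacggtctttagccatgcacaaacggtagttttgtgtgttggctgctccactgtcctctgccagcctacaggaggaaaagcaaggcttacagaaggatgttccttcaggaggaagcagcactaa
RPS27P19: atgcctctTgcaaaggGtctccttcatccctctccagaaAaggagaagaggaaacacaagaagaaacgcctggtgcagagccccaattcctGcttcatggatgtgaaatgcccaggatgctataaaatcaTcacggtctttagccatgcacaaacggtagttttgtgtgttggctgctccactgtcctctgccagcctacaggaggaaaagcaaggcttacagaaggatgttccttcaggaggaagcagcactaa
RPS27P9: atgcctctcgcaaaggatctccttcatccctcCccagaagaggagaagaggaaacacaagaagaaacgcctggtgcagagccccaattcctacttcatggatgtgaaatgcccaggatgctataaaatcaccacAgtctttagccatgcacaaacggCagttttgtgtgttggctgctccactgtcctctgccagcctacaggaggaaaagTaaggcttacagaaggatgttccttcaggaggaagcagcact

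RPS27P3 and RPS27P4 each hold 1 difference in 255 bases, RPS27P19 holds 5 in 255, and RPS27P9 holds 4 in 253. RPS26P19 is the exception among the 56, at 83.6% identity with RPS26, and 90 bases of it (chr2:127846857-127846946, minus strand) are printed against coding bases 133 to 222 of RPS26, with 16 differences in capitals.
RPS26 coding sequence window: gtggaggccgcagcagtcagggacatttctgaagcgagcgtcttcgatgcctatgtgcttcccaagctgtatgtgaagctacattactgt
RPS26P19: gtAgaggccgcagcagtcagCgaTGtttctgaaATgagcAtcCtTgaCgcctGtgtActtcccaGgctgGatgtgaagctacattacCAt

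Between LV-NC and LV-SNORA28, some of the RPS pseudogenes fell and none rose. With limma over all genes tested, 21 of the 56 (37.5%) had an adjusted p below 0.05 and were lower, against a background of 2.1% of all genes called lower. None of the 56 was called higher in limma, against a background of 6.81%. At an unadjusted p below 0.05 in limma 29 of the 56 were lower and 0 higher, against 6.08% and 22.0% of all genes tested. The 29 members whose LV-SNORA28 values all lay below their LV-NC values made up 51.8%, against 8.16% of all genes tested, and 0 members lay wholly above, against 27.0%. The other 27 overlapped, and 8 of the 56 had a log2 fold change above 0. A mean of at least 1 FPKM was reached in LV-NC alone by 7 members, so these 7 were admitted through the group in which they were higher. RPS2P17 and RPSAP3 of the 21 were among them, as were 3 of the 29 without overlap, namely RPS2P17, RPSAP3 and RPSAP61. These 3 and RPSAP18, also admitted through LV-NC alone, were among the 29 lower at an unadjusted p below 0.05 in limma. The median log2 fold change of the 56, on the log2(FPKM + 1) scale, was -0.44. The threshold of the study, a fold change over 1.5 at an unadjusted p below 0.05, was applied to limma p-values and to fold changes on the log2(FPKM + 1) scale. The study does not name its own test for these values. By this measure 17 were lower and 0 higher, where the background was 1.22% and 2.58%. RPS2P17, RPSAP3 and RPSAP61 were among the 17.

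**Figure D1:**
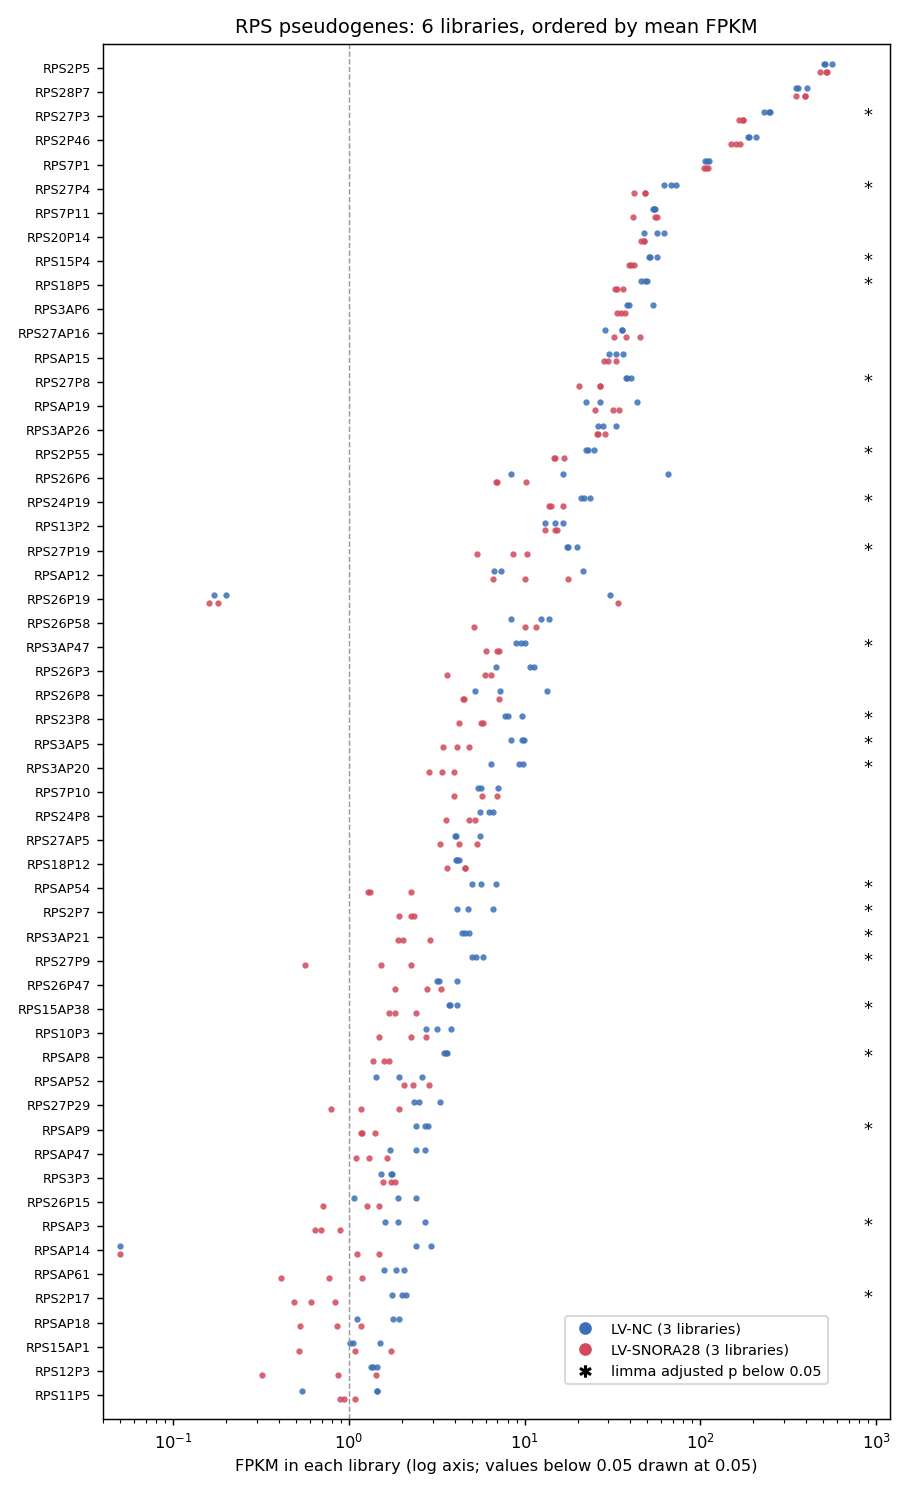
FPKM of each of the 56 RPS pseudogenes in each library (horizontal log axis), ordered by mean, with LV-NC in blue, LV-SNORA28 in red and an asterisk at the 21 called lower in limma; the dashed line marks 1 FPKM. In 29 rows all red points lie left of all blue points, and in 0 rows do they all lie right of them.

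The number of calls depended on the libraries. With 1 library left out, 5 libraries remain in each fit, and the 21 became 11 without LV-NC replicate 2, 12 without LV-NC replicate 3, 10 without LV-SNORA28 replicate 2, 11 without LV-SNORA28 replicate 3 and 14 without either of the other two. All of these were among the 21 except 1 of the 14 without LV-SNORA28 replicate 1. The share of all genes called lower in these fits was 0.729% to 1.13%, the median log2 fold change of the 56 stayed between -0.48 and -0.40, and 26 to 29 members were lower at an unadjusted p below 0.05 in limma. RPS18P5, RPS27P3, RPS2P17, RPS3AP5, RPSAP54, RPSAP8 and RPSAP9 were called in all 6 of these fits. The share of mitochondrial transcripts moved with the groups, and whether it had a part in the calls was not tested. After the libraries were rescaled to the same sum over the other genes, 22 members and 2.19% of all genes were called lower in limma.

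Summed over the 56, FPKM was 2170, 2284 and 2177 in LV-NC and 1955, 1960 and 1798 in LV-SNORA28. The sums did not overlap, and their group means were 2210 ± 64.1 (SD, n = 3) and 1904 ± 92.1 (SD, n = 3), a ratio of 0.862. The 19 parents summed to 7543 ± 144 (SD, n = 3) and 6608 ± 224 (SD, n = 3), a ratio of 0.876. As a percentage of the sum of the parents the copies made up 29.4, 29.8 and 28.7 in LV-NC libraries, against 28.5, 29.9 and 28.0 in LV-SNORA28 libraries, and these shares overlapped. RPS2P5 and RPS28P7 held 40.6% of the mean sum for LV-NC and 46.5% of that for LV-SNORA28. Without them the mean sum for LV-NC was 1312 ± 4.04 (SD, n = 3) and that for LV-SNORA28 was 1018 ± 43.4 (SD, n = 3), a ratio of 0.776.

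The 6 copies of RPS27, which encodes a zinc-binding protein of the 40S subunit, formed the group with the largest share of calls among parents with several copies. All 6 had groups that did not overlap, and 5 were called lower in limma. RPS27P3 measured 245.46, 249.97 and 229.67 FPKM across the LV-NC libraries, against 165.82, 175.3 and 174.33 FPKM across the LV-SNORA28 libraries. All LV-SNORA28 libraries thus lay below all LV-NC libraries, and the log2 fold change was -0.49 (SE 0.06, adjusted p = 0.00900 in limma). RPS27P9 measured 5.82, 5.05 and 5.26 FPKM across the LV-NC libraries, against 0.56, 2.25 and 1.52 FPKM across the LV-SNORA28 libraries. The groups were again apart, with LV-SNORA28 replicate 1 lowest, and the log2 fold change of -1.45 (SE 0.25, adjusted p = 0.0233 in limma) was the most negative of the 56. Its adjusted p in limma was between 0.0624 and 0.0729 without any of the 3 LV-NC libraries or without LV-SNORA28 replicate 3.

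RPS27P19 measured 19.8, 17.34 and 17.64 FPKM across the LV-NC libraries, against 10.27, 8.58 and 5.36 FPKM across the LV-SNORA28 libraries. Its groups did not overlap, and the log2 fold change was -1.12 (SE 0.20, adjusted p = 0.0253 in limma). The adjusted p in limma lay between 0.0669 and 0.0724 without any of the LV-NC libraries or without LV-SNORA28 replicate 2. RPS27P19 lies within SIK3 on the same strand, and SIK3 was listed at 3.16 to 3.44 FPKM in LV-NC and at 3.1 to 3.18 FPKM in LV-SNORA28. RPS27P4 and RPS27P8 were called lower too, at log2 fold changes of -0.55 and -0.64, and in limma both lost the call in 4 of the 6 fits with 1 library left out. RPS27P29 had a log2 fold change of -0.71 with an adjusted p of 0.0700 in limma. The parent RPS27 measured 581.9, 564.96 and 526.66 FPKM across the LV-NC libraries, against 439.76, 528.82 and 519.27 FPKM across the LV-SNORA28 libraries. These groups overlapped, and the log2 fold change of the parent was -0.17 (SE 0.09, adjusted p = 0.264 in limma).

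**Figure D2:**
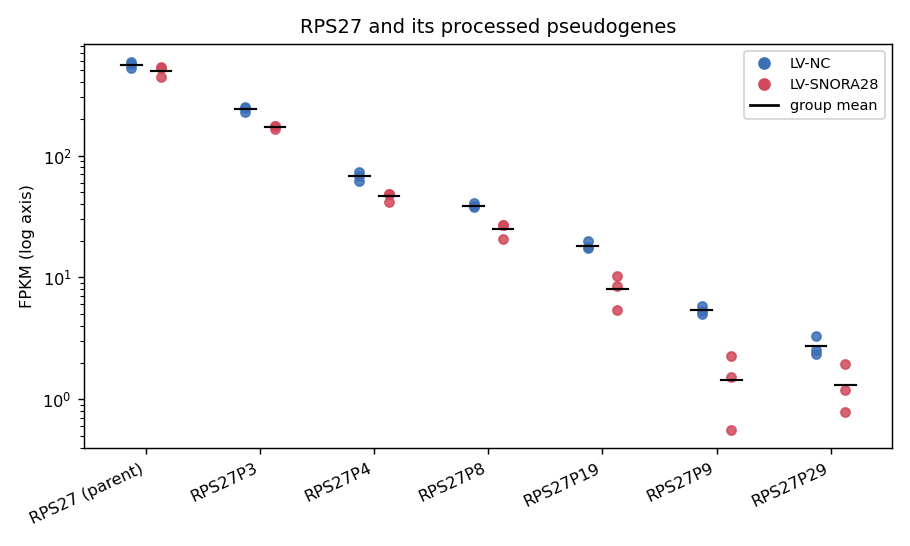
FPKM (log axis) of RPS27 and its 6 pseudogenes in the 3 LV-NC (blue) and 3 LV-SNORA28 (red) libraries, with bars at the group means. The groups overlap for the parent and do not overlap for any of the 6 copies, and the copies span means from 207 FPKM (RPS27P3) to 2.01 FPKM (RPS27P29).

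RPSA, which encodes a 40S protein also known as the laminin receptor precursor, had the most copies, 12. Of these, 4 were called lower in limma, 6 had groups that did not overlap, and 3 had a fold change above 0. RPSAP54 (chromosome 13, 20961310 to 20962195, plus strand) measured 6.83, 5.63 and 5.03 FPKM across the LV-NC libraries, against 1.29, 2.25 and 1.32 FPKM across the LV-SNORA28 libraries. Every LV-SNORA28 value lay under every LV-NC value, and the log2 fold change was -1.39 (SE 0.17, adjusted p = 0.00896 in limma). RPSAP8 (chromosome X, 100155885 to 100156773, minus strand) measured 3.62, 3.47 and 3.59 FPKM across the LV-NC libraries, against 1.37, 1.7 and 1.58 FPKM across the LV-SNORA28 libraries. It varied little within groups, and its log2 fold change of -0.84 (SE 0.08) had the lowest adjusted p among the 56, 0.00445 in limma. RPSAP9 and RPSAP3 were called lower with log2 fold changes of -0.69 and -0.81. RPSAP3, admitted through LV-NC alone, was not called in limma without LV-NC replicate 2 or without any of the LV-SNORA28 libraries, where its adjusted p reached 0.09. RPSAP47 and RPSAP61 were not called but had groups apart, at log2 fold changes of -0.47 and -0.68, and RPSAP61 was admitted through LV-NC alone.

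The most abundant RPSA copies behaved otherwise. RPSAP15 and RPSAP19 had means of 31.9 and 30.7 FPKM, log2 fold changes of -0.12 and 0.02 and overlapping groups. RPSAP12 measured 21.39, 7.33 and 6.74 FPKM across the LV-NC libraries, against 10.1, 17.74 and 6.64 FPKM across the LV-SNORA28 libraries, so that 1 library stood apart in each group. RPSAP52, which at 92.4% identity was the second least similar copy and lies opposite HMGA2, had a log2 fold change of 0.20 (adjusted p = 0.478 in limma), the highest of the 56. RPSAP14 was the only member listed at 0 in any library, namely in LV-NC replicate 1 and LV-SNORA28 replicate 1. RPSAP14 and RPSAP18 had overlapping groups at log2 fold changes of -0.45 and -0.50. The parent RPSA measured 420.09, 435.53 and 427.28 FPKM across the LV-NC libraries, against 417.17, 417.76 and 400.31 FPKM across the LV-SNORA28 libraries. These groups did not overlap, with a log2 fold change of -0.05 (adjusted p = 0.551 in limma).

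RPS3A encodes a 40S protein at the platform of the subunit, and 4 of its 6 copies were called lower in limma. RPS3AP20 (chromosome 5, 79284132 to 79284918, minus strand) measured 9.82, 9.28 and 6.44 FPKM across the LV-NC libraries, against 2.84, 3.38 and 3.98 FPKM across the LV-SNORA28 libraries. The groups did not overlap, and the log2 fold change was -1.10 (SE 0.17, adjusted p = 0.0158 in limma). The adjusted p in limma was 0.0513 without LV-NC replicate 2, 0.0507 without LV-SNORA28 replicate 1 and 0.0601 without LV-SNORA28 replicate 2. RPS3AP5 (chromosome 10, 84560443 to 84561263, plus strand) measured 9.89, 9.61 and 8.38 FPKM across the LV-NC libraries, against 4.85, 4.14 and 3.45 FPKM across the LV-SNORA28 libraries, again without overlap. Its log2 fold change was -1.01 (SE 0.12, adjusted p = 0.00814 in limma). RPS3AP21 and RPS3AP47 were called lower at -0.78 and -0.45, and RPS3AP47 was called in none of the 6 fits with 1 library left out, where limma gave adjusted p-values from 0.053 to 0.0812.

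The RPS3A parent did not follow its copies. It measured 307.87, 427.39 and 308.76 FPKM across the LV-NC libraries, against 480.55, 305.69 and 340.08 FPKM across the LV-SNORA28 libraries. LV-SNORA28 replicate 1 and LV-NC replicate 2 were high, the groups overlapped, and the log2 fold change was 0.10 (SE 0.20, adjusted p = 0.791 in limma) and -0.09 without LV-SNORA28 replicate 1. The most abundant copies, RPS3AP6 and RPS3AP26, had means of 39.6 and 28.0 FPKM and log2 fold changes of -0.28 and -0.10 that did not pass in limma, and the groups of RPS3AP6 did not overlap.

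For RPS2, whose protein lines the path of the message into the 40S subunit, 3 of 5 copies were called lower in limma. RPS2P7 (chromosome 20, 45640486 to 45641370, minus strand) measured 6.59, 4.13 and 4.74 FPKM across the LV-NC libraries, against 2.25, 2.35 and 1.94 FPKM across the LV-SNORA28 libraries. The groups were apart, and the log2 fold change was -0.93 (SE 0.15, adjusted p = 0.0187 in limma). The adjusted p in limma rose to between 0.0537 and 0.0722 without LV-NC replicate 3 or without any of the LV-SNORA28 libraries. RPS2P17 (chromosome 2, 84915868 to 84916660, plus strand) measured 2, 1.75 and 2.11 FPKM across the LV-NC libraries, against 0.49, 0.83 and 0.61 FPKM across the LV-SNORA28 libraries. It was admitted through LV-NC alone, and it showed no overlap and a log2 fold change of -0.85 (SE 0.11, adjusted p = 0.0102 in limma). RPS2P55, at a mean of 19.4 FPKM, was called lower at -0.57 and missed the threshold without LV-SNORA28 replicate 2 (adjusted p = 0.051 in limma). RPS2P46 had a log2 fold change of -0.29 (adjusted p = 0.0541 in limma) without overlap between groups. The parent RPS2 measured 1283.31, 1473.02 and 1357.75 FPKM across the LV-NC libraries, against 1122.21, 860.91 and 1078.16 FPKM across the LV-SNORA28 libraries. Here the parent was lower as well without overlap, at -0.43 (SE 0.12), but did not pass over all genes, with an adjusted p of 0.0670 in limma.

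Among the 5 most abundant members, RPS27P3 alone was called. RPS2P5, the highest, measured 503.17, 563.65 and 511.84 FPKM across the LV-NC libraries, against 516.64, 522.98 and 480.1 FPKM across the LV-SNORA28 libraries. RPS28P7 measured 359.23, 405.15 and 350.78 FPKM across the LV-NC libraries, against 395.26, 393.87 and 350.07 FPKM across the LV-SNORA28 libraries. RPS7P1 measured 105.97, 109.13 and 111.53 FPKM across the LV-NC libraries, against 110.2, 108.05 and 105.36 FPKM across the LV-SNORA28 libraries. In all of these the groups overlapped, with log2 fold changes of -0.05, 0.03 and -0.01 and adjusted p-values of 0.663, 0.842 and 0.896 in limma. RPS2P5 turned to 0.03 when the log2 values were quantile normalized, and RPS28P7 and RPS7P1 changed sign with LV-NC replicate 3 left out, RPS7P1 also without LV-SNORA28 replicate 3. RPS28P7 and RPS7P1 were the only members listed above their parents in every library. RPS28P7 stood at 722% of the LV-NC mean of RPS28 and at 871% of its LV-SNORA28 mean, and RPS7P1 at 130% and 139% of those of RPS7. RPS28 encodes one of the smallest proteins of the 40S subunit, and RPS7 encodes a protein that takes part in 18S rRNA processing.

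The 7 copies of RPS26, which encodes a 40S protein at the exit of the message channel, varied most. None was called in limma, 1 was lower at an unadjusted p below 0.05, and 1 had groups that did not overlap. The median SD of their log2 values within groups was 0.46, against 0.18 for the other members and 0.12 for all genes tested. RPS26P6 measured 16.62, 8.42 and 65.04 FPKM across the LV-NC libraries, against 10.17, 6.98 and 6.87 FPKM across the LV-SNORA28 libraries. Here LV-NC replicate 3 stood far above all others, and the log2 fold change of -1.32 (SE 0.66) had an adjusted p of 0.250 in limma. RPS26P19 measured 0.2, 0.17 and 30.74 FPKM across the LV-NC libraries, against 34.14, 0.18 and 0.16 FPKM across the LV-SNORA28 libraries. It was high in 1 library of each group and near 0 in the remaining 4. POLR2D, the gene that spans it on the same strand, measured 7.16, 7.71 and 6.41 FPKM across the LV-NC libraries, against 7.08, 13.35 and 9.4 FPKM across the LV-SNORA28 libraries. In each group POLR2D was lowest in the library where RPS26P19 was high, and a link between them was not tested. RPS26P3 was the copy without overlap, at a log2 fold change of -0.75 (adjusted p = 0.103 in limma), and RPS26P58, RPS26P8, RPS26P47 and RPS26P15 had overlapping groups at -0.37, -0.53, -0.32 and -0.36. The parent RPS26 lay between 146 and 191 FPKM in all 6 libraries, with a log2 fold change of -0.10 (adjusted p = 0.577 in limma).

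The other 20 members, RPS28P7 and RPS7P1 among them, are copies of 14 further 40S genes, and 5 of the 20 were called lower in limma. RPS18P5, a copy of the gene for a head protein, measured 49.92, 45.85 and 48.49 FPKM across the LV-NC libraries, against 33.58, 36.18 and 32.69 FPKM across the LV-SNORA28 libraries. The groups were apart, with a log2 fold change of -0.48 (SE 0.06, adjusted p = 0.0109 in limma). RPS15AP38 (-0.72), RPS23P8 (-0.62), RPS24P19 (-0.55) and RPS15P4 (-0.39) were the other calls, and in limma each missed the threshold in at least 1 fit with a library left out, RPS23P8 in all 6. Both RPS27A copies, RPS27AP16 and RPS27AP5, had overlapping groups at log2 fold changes of 0.19 and -0.07, and RPS27A is the gene that encodes ubiquitin fused to a 40S protein. RPS7P10, RPS7P11, RPS13P2, RPS3P3 and RPS18P12 had overlapping groups and log2 fold changes between -0.13 and 0.03. RPS20P14 and RPS24P8 were not called but had groups apart at -0.22 and -0.38, and RPS10P3 overlapped at -0.44.

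**Figure D3:**
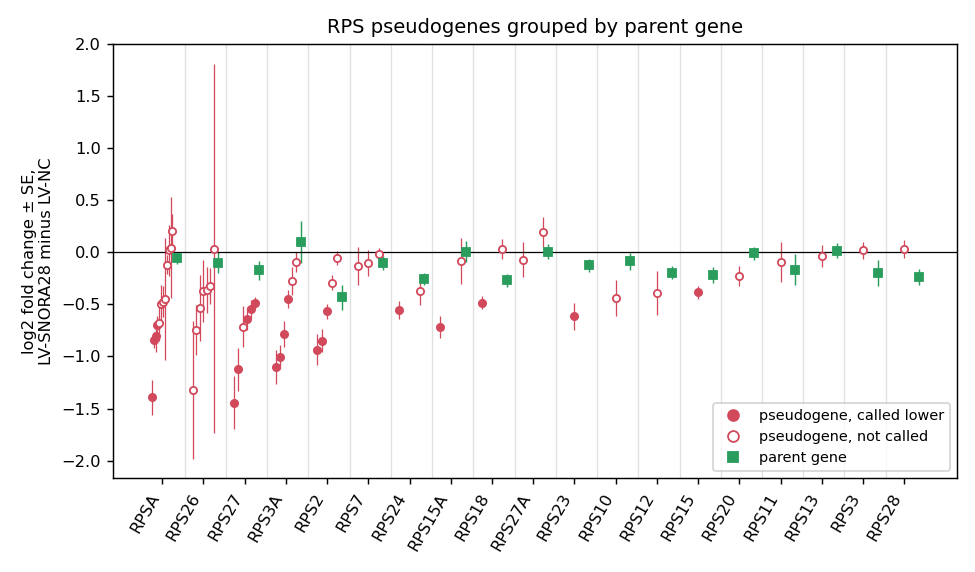
Log2 fold change (LV-SNORA28 minus LV-NC, with SE from limma) of the 56 RPS pseudogenes as circles, filled where called lower, and of their 19 parent genes as green squares at the right of each group. All 6 copies of RPS27 and all 6 of RPS3A lie below their parents, as do 3 of 5 copies of RPS2 and 9 of 12 of RPSA, and parents lie between -0.43 (RPS2) and 0.10 (RPS3A).

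The genes for 40S proteins, the 19 parents among them, were compared in the same way. Of 34 genes for 40S proteins, RACK1 and RPS27L included, 1 was called lower and 0 higher in limma, against backgrounds of 2.1% and 6.81%. At an unadjusted p below 0.05 in limma 9 were lower and 0 higher, where 6.08% and 22.0% of all genes were. The groups did not overlap for 13 lower genes (38.2%) and 1 higher gene, against 8.16% and 27.0% of all genes. RPS24, the call, measured 147.11, 154.29 and 139.15 FPKM across the LV-NC libraries, against 121.07, 125.8 and 120.87 FPKM across the LV-SNORA28 libraries. The groups did not overlap, and the log2 fold change was -0.26 (SE 0.06, adjusted p = 0.0481 in limma). The call did not hold with any 1 library left out (adjusted p from 0.0659 without LV-NC replicate 3 to 0.15 without LV-SNORA28 replicate 3, in limma). The median log2 fold change of the 34 was -0.13 and that of the 56 copies -0.44, beside 0.09 for all genes tested. When the log2 values were quantile normalized, these medians were -0.09, -0.50 and -0.00130. Summed FPKM of the 34 genes was 10628 ± 137 (SD, n = 3) for LV-NC and 9460 ± 241 (SD, n = 3) for LV-SNORA28.

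**Figure D4:**
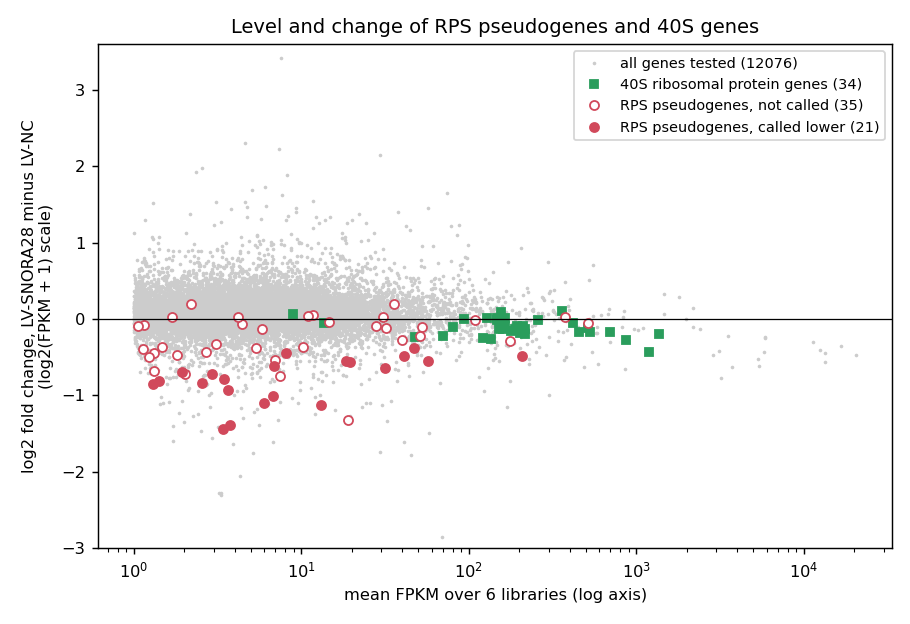
Log2 fold change (LV-SNORA28 minus LV-NC, log2(FPKM + 1) scale) against mean FPKM (log axis) for all 12076 genes tested (grey), the 34 40S genes (green squares) and the 56 RPS pseudogenes (red, filled for the 21 called lower). Filled points lie between -0.39 and -1.45, and the 40S genes lie at the right between -0.43 and 0.10.

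Whether a copy changed more than its parent was tested on the log2 ratio of copy to parent within each library. These ratios were fitted in limma over the 487 pseudogene and parent pairs in which both averaged 1 FPKM or more. Before the ratio was taken, 1 FPKM was added to copy and parent, which shrinks the change of copies at low level. Copies of the same parent share that parent's values and are not independent. Of the 56 ratios, 9 were called lower and 0 higher in limma, against backgrounds of 8.21% and 1.44% of all pairs, and 18 were lower and 1 higher at an unadjusted p below 0.05, against 23.2% and 4.31% of all pairs. The median change of the 56 log2 ratios was -0.28, beside -0.14 over all pairs, and 44 of 56 were negative. The 9 were RPSAP54, RPS27P9, RPS3AP20, RPS3AP5, RPS3AP21, RPSAP8, RPSAP3, RPS15AP38 and RPSAP9, each of which was also called lower by itself. Of these, RPSAP3 was admitted through LV-NC alone, the group in which it was higher. The percentages that follow are of FPKM without the added 1, so they fall further than the fitted log2 ratios beside them. RPSAP54 fell from 1.36% of the RPSA level to 0.393%, with a fitted log2 ratio change of -1.34 (SE 0.19, adjusted p = 0.0248 in limma). RPS27P9 fell from 0.964% of the RPS27 level to 0.291%, with a fitted change of -1.27 (SE 0.21, adjusted p = 0.0251 in limma). RPS3AP20 fell from 2.45% of the RPS3A level to 0.906%, with a fitted change of -1.20 (SE 0.28, adjusted p = 0.0489 in limma). For the other 12 copies called lower the ratio was not called, and none of the RPS2 ratios passed. RPS2P17, at a mean of 1.3 FPKM, fell from 0.142% of the RPS2 level to 0.063%, with a fitted change of -0.42 (adjusted p = 0.267 in limma). The shares of RPS2P5 and RPS2P46 rose instead, from 38.4% to 49.6% and from 14.2% to 15.6%. A ratio that was not called thus does not show that a copy at low level changed as its parent did. In limma the 9 calls became 2 without LV-SNORA28 replicate 2 and 0 without any other library, where 11 to 17 ratios were still lower at an unadjusted p below 0.05.

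The size of the change was next set beside features that the selection did not use directly. Identity to the parent was tied to level, though, with a Spearman rho of 0.62 between identity and mean FPKM. Across the 56 members, log2 fold change and identity to the parent had a Spearman rho of 0.02 and a Pearson r of -0.16, where all points share the 6 libraries and many share a parent. Of the 16 members with at least 99% identity, 5 were called lower in limma, as were 5 of the 12 between 98% and 99% and 11 of the 28 below 98%. Exactly 28 members shared at least 1 stretch of 150 bases, the length of a read, with the parent transcript. Of these 28, 11 were called lower with a median log2 fold change of -0.41, against 10 of the other 28 with a median of -0.45. In FPKM, the median ratio of group means (LV-SNORA28 over LV-NC) was 0.711 with a shared stretch and 0.611 without. The median levels of these groups were 23.7 and 2.74 FPKM, and the log2(FPKM + 1) scale understates change at low level. In the identity classes, highest first, the ratio was 0.732, 0.763 and 0.665. Whether level accounts for these differences was not tested.

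**Figure D5:**
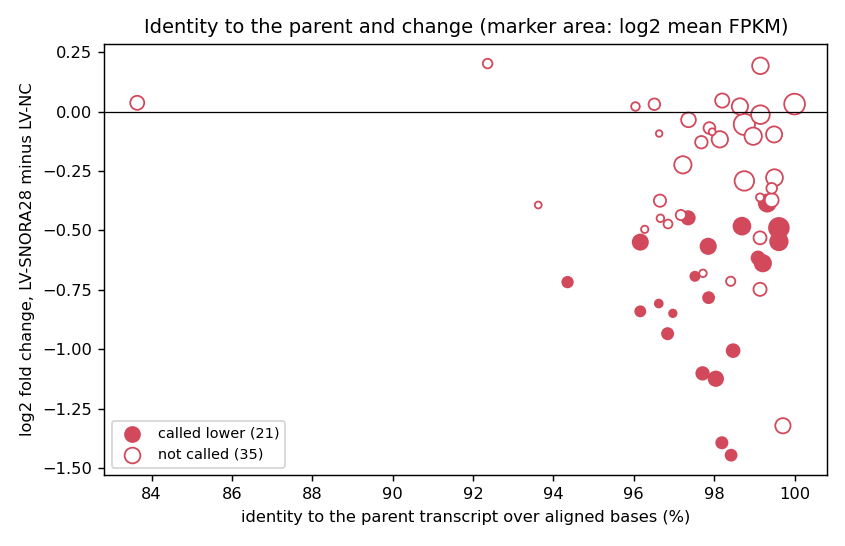
Log2 fold change (LV-SNORA28 minus LV-NC) of the 56 RPS pseudogenes against identity to the parent transcript over aligned bases in percent, with marker area growing with log2 mean FPKM and filled markers for the 21 called lower. Called members occur from 94.3% to 99.6% identity, and RPS26P19 stands alone at 83.6%.

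Level chose the members, so counts by level are a description only. By level, 5 of 15 members with a mean of at least 30 FPKM were called lower in limma, 3 of 9 between 10 and 30 FPKM, 10 of 20 between 2 and 10 FPKM, and 3 of 12 between 1 and 2 FPKM. The median ratio of group means (LV-SNORA28 over LV-NC, in FPKM) was 0.849, 0.776, 0.584 and 0.562 in these classes. The lowest class holds all 7 members admitted through LV-NC alone, RPS2P17 and RPSAP3 of its 3 calls among them. A ratio below 1 in that class is therefore partly set by the selection. The log2(FPKM + 1) scale understates the change of low members. With a pseudocount of 0.1 the median log2 fold change of the 56 was -0.53, with 21 calls against 2.1% of all genes called lower. A reading frame at least as long as the parent protein was present in 25 members, of which 8 were called lower, beside 13 of the 31 without. The 56 copies lie on 19 chromosomes, 2 of them on the chromosome of their parent, and 8 lie on chromosome X, of which 4 were called lower. A gene averaging 1 FPKM or more overlapped 4 members on the same strand and 9 on the opposite strand. Among the 43 with no such neighbour, 17 were called lower and the median log2 fold change was -0.47.

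At the edge of the selection, RPS15AP1, RPS12P3 and RPS11P5 had means of 1.16, 1.13 and 1.06 FPKM and overlapping groups. RPSAP26, RPS27P17 and RPS26P11 fell just outside at 0.997, 0.978 and 0.972 FPKM. Of these, RPS27P17 measured 1.59, 1.59 and 1.77 FPKM across the LV-NC libraries, against 0.02, 0.68 and 0.22 FPKM across the LV-SNORA28 libraries, without overlap, as for the RPS27 copies inside. Another 168 RPS pseudogenes were above 0 in some library with a mean below 1 FPKM, and 271 were at 0 throughout. The group mean was lower in LV-SNORA28 for 74 of the 168, and for 28 of the 57 with a mean of at least 0.1 FPKM. Depth was not given, so no limit can be attached to a value of 0.

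The closest group of genes, the 112 pseudogenes of large-subunit (RPL) genes that passed the same level, had 34 called lower (30.4%) and 2 higher in limma, with a median log2 fold change of -0.32. Values lay wholly lower without overlap for 55 of the 112 (49.1%) and wholly higher for 6, beside 51.8% and 0 for the RPS copies. At the threshold of the study 27 of the 112 were lower and 4 higher. Among all 680 tested pseudogenes other than the RPS copies, 77 were called lower (11.3%) and 14 higher, with a median of -0.04. These 680 include the 112 RPL pseudogenes, which held 34 of the 77 lower calls. These values are set side by side, and the difference between the groups was not tested.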

How the data were processed

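The authors deposited 1 table per library with Ensembl identifiers and FPKM values of at most 2 decimals. The submitters' processing notes name cutadapt 1.9, HISAT2 2.2.1, StringTie 2.1.6 and the build hg38, without roles. The annotation release, filters, strand setting and mapped totals are not given in the sources used here, so depth is unknown. Second strands carried dUTP and were digested before PCR per the labels. Groups came from sample titles. Symbols, biotypes and sequences came from GENCODE release 44 on GRCh38 (60401 identifiers matched).

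The log2(FPKM + 1) values of 12076 genes averaging 1 FPKM or more were fitted with limma 3.58.1 (R 4.3.3, eBayes with a trend), two-sided, with Benjamini-Hochberg adjustment over all genes. Log2 copy-to-parent ratios were fitted likewise over all pairs. Both fits were also run on values simulated independently for each gene. Such values hold no reads shared between copy and parent and cannot test for them. Canonical transcripts were aligned locally in Biopython 1.88 (match 2, mismatch -3). Any 2 libraries differed in at least 26342 genes.

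Genes were named by rule: the 8 members called in each direction with the largest change, the 5 most abundant, the 3 on each side of 1 FPKM, their parents, the 3 ratios called in each direction with the largest change, 40S genes called and SNORA28. Other members were named to account for their groups, after their values were seen. The members and lists were chosen with earlier results of these data known. The alternatives were no trend, quantile normalization, scaling to the sum outside the mitochondrial chromosome, a pseudocount of 0.1, no filter, a minimum mean of 5 FPKM, the replicate number as a block, each library left out and the threshold of the study.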

Additional observations from a re-analysis of the deposited data

How the results depend on the processing

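No member was called higher under any alternative. The count of 21 copies called lower was 10 when all 32761 genes above 0 in any library entered (0.278% of all genes called lower, median log2 fold change of the copies -0.44, 28 lower at an unadjusted p below 0.05). It was 13, 12 of them among the 21, with a minimum mean of 5 FPKM, which 32 members reach. At that minimum 3.48% of the 6241 genes tested were called lower. The count ranged from 10 to 14 with 1 library left out. The 9 lower ratios became 2 at that minimum (9 lower at an unadjusted p below 0.05) and ranged from 0 to 2 with 1 library left out. The 1 40S gene became 0 without a trend and without a filter (8 lower at an unadjusted p below 0.05 in each), at the threshold of the study and in every fit with 1 library left out (range 0 to 0, with 4 to 9 lower at an unadjusted p below 0.05 in limma), and 2 at the minimum of 5 FPKM.

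Libraries that share a replicate number showed no pairing, since their deviations from group means correlated at -0.0441, 0.0914 and 0.00983. With the replicate block, limma called 17 copies lower, 15 of them among the 21, against 1.09% of all genes. It called 0 ratios (15 lower at an unadjusted p below 0.05) and 0 40S genes (8 lower at an unadjusted p below 0.05).

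Among the genes named by rule, log2 fold changes that changed sign belonged to genes not called: RPS2P5 (0.0320) and RPS15A (-0.12) under quantile normalization, RPS15A (-0.0221) under scaling to the nuclear sum, and, with 1 library left out, RPS28P7 (-0.00890 to 0.0947), RPS7P1 (-0.0324 to 0.00420), RPS15AP1 (-0.29 to 0.13), RPS11P5 (-0.32 to 0.0192), RPS3A (-0.0922 to 0.26) and RPS15A (-0.0483 to 0.0978). Other members also changed sign, such as RPS3P3 (-0.0610 under quantile normalization) and RPS26P19 (-0.0010 with a pseudocount of 0.1). The cause was not tested. Among named genes, 31 values fell short of the threshold, 2 came to pass it and 308 kept direction and side.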
